A study of Mus musculus with 18 samples.

Results

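Wild-type mouse cortex was set against the wild-type samples titled rest, both taken at postnatal day 7. The 6 arrays were chosen by their titles: wild-type cortex replicates 1 to 3 on the A chip and wild-type rest replicates 1 to 3, out of 18 arrays in the series. The series was built around a conditional Brca1 knockout, in which nestin Cre acts on a floxed allele (exons 5 to 13) and the other allele is null through a neo cassette placed in inverted orientation at exon 11. The wild-type animals are labelled only as wildtype, with no strain, sex or pool size. The design text speaks of cortices from 3 wild-type animals; for the rest samples no animals are named, and whether a shared replicate number means a shared animal is not stated. For the rest samples the source reads P7 brain, and what was dissected is not stated. Total RNA was extracted with TRIZOL and labelled by the standard Affymetrix protocol.

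The cerebral cortex is built mainly from glutamatergic projection neurons, whose identity is set by a small group of transcription factors. Thalamus, hypothalamus, midbrain, hindbrain and cerebellum use other transcription factors, other transmitter enzymes and, for glutamate, another vesicular transporter. Myelin forms early in the hindbrain and brain stem and later in the cortex, so the first postnatal weeks are a time of large regional differences in oligodendrocyte genes. These facts are background and not results of the arrays.

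The cortex samples were hybridised to the A chip and the rest samples to an array that carries all 22626 probe sets of the A chip. Values were therefore compared as percentile ranks within an array over these 22626 probe sets. A probe set was called where the 3 arrays of a group all ranked above the 3 of the other and the group means differed by at least 10 percentile points. Region and array type cannot be told apart in this design, the tables were normalized separately, and 3 arrays against 3 cannot reach an exact permutation p below 0.1, so no p-value is given.

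Between 12213 and 13127 probe sets had a value on a cortex array and between 14141 and 14471 on a rest array. The others were blank, for a reason not stated, and a blank took the lowest rank: 42.0 to 46.0 on the cortex arrays and 36.0 to 37.5 on the rest arrays. A gene that was blank on all 6 arrays therefore appears 7.50 points higher in cortex, which measures nothing. Some lists are given also with every rank under 46.0 raised to that common floor. The counts of called genes per list were the same with it, except in 3 lists. These were the excitatory synapse list, the granule cell list, and the pituitary, pineal, eye and muscle list. Median shifts moved in more lists. The ratio of the actin 3' to 5' probe sets, a sign of RNA length, was 1.40 to 1.51 on the cortex arrays and 1.64 to 1.70 on the rest arrays, and its part in the results was not tested. Among genes with no known regional role, 25 housekeeping genes lay between -7.49 and 5.53 points (cortex minus rest), with a median of -0.0796, and 0 of them were called. Their median rank was 96.9 to 97.5 on every array, near the top of the scale, so they say little about array type for dimmer probe sets.

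Single arrays differed within a group, which bears on what follows. Rest replicate 1 was the array with pituitary hormone transcripts, rest replicate 3 had the most cerebellar signal, rest replicate 2 carried several cortical transcripts, and cortex replicate 2 was blank for several striatal ones. Their values are given at the end. Of the sex-linked genes, Xist was listed on all 6 arrays. Its brightest probe set had signals of 2855.3, 2678.1 and 2849 in cortex and 4642.1, 3497.4 and 4259 in rest, and a second had 688.4, 461.4 and 552.1 in cortex and 290.1, 294.6 and 207 in rest and was called higher in cortex by 23.3 points. Eif2s3y was blank on all 6 arrays, and Kdm5d had a value of 25.8 on rest replicate 2 alone.

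Of the 22626 probe sets, 461 (2.04%) were called higher in cortex and 440 (1.94%) higher in rest. With the common floor the counts were 335 (1.48%) and 412 (1.82%). When signals were instead scaled to a common mean and compared as log2(signal + 16), 237 probe sets were higher in cortex by at least 1 and 1057 in rest (137 and 563 with log2(signal + 64)), and with a blank at 0 the counts were 445 and 912, so the balance between the directions depends on the scale. Of the probe sets higher in rest, 155 were blank on all 3 cortex arrays; of those higher in cortex, 61 were blank on all 3 rest arrays. With 1 probe set per gene, the brightest, 259 of 12393 genes (2.09%) were higher in cortex and 252 (2.03%) in rest, or 188 (1.52%) and 243 (1.96%) with the common floor. These shares are the background for every list below. Groups that did not overlap by any margin were far more common, at 14148 probe sets (62.5%). That count includes every probe set blank on all arrays, because a blank ranks higher on each cortex array than on any rest array. It is therefore not a measure of regional difference.

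**Figure D1:**
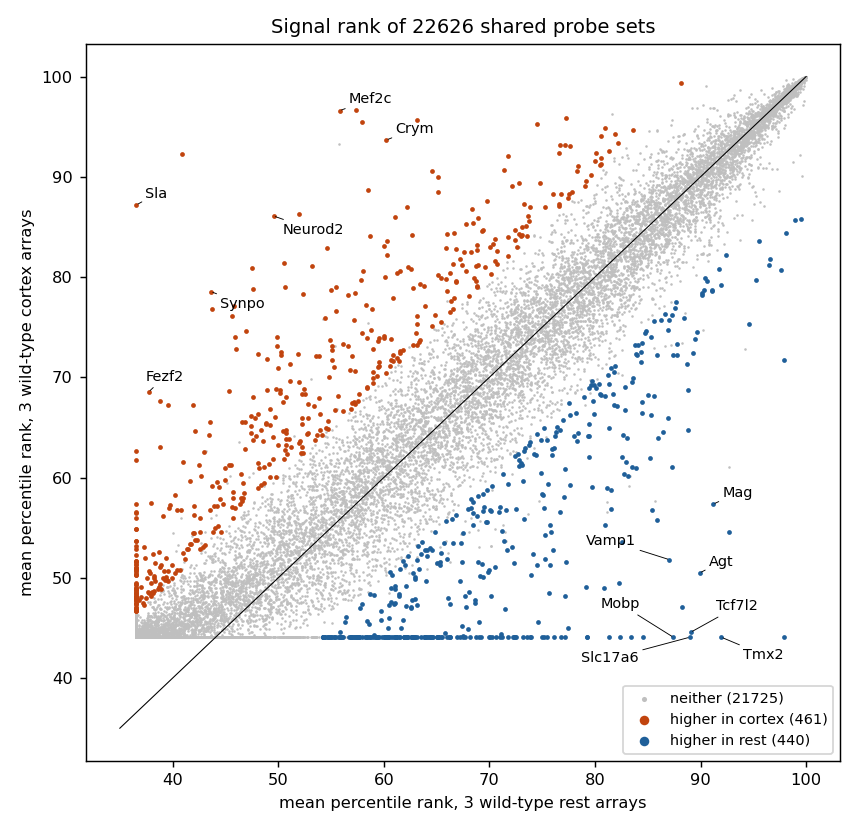
Each point is 1 of 22626 probe sets, plotted by its mean percentile rank on the 3 wild-type rest arrays (horizontal axis) and on the 3 wild-type cortex arrays (vertical axis); the line marks equal rank. Most probe sets lie along the line, 461 stand above it in orange and 440 below it in blue, and the labelled genes are among the largest shifts with 1 gene symbol.

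The sequences just before the start sites of 4 called genes are shown as examples of the gene groups described next: Neurod2 and Fezf2 for cortical neurons, Zic1 for the cerebellar granule lineage and Mobp for myelin. Each is the 250 bases upstream of the annotated RefSeq start in GRCm38.p6, read 5′ to 3′ on the gene's strand (minus for Neurod2, Fezf2 and Zic1, plus for Mobp). Capitals mark CAGATG or its reverse complement CATCTG, an E-box of neuronal helix-loop-helix factors, and ACAAAG or its reverse complement CTTTGT, the core of SOX sites.
Neurod2 chr11:98329646-98329895: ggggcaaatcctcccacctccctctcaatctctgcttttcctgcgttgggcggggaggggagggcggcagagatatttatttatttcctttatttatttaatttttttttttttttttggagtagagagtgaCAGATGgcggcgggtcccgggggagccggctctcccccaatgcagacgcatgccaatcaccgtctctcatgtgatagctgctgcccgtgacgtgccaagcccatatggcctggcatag
Fezf2 chr14:12345866-12346115: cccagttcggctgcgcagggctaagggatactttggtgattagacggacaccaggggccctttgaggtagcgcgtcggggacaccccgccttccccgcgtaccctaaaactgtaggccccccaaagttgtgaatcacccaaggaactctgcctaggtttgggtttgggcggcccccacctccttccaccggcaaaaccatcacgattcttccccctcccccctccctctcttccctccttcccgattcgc
Zic1 chr9:91365769-91366018: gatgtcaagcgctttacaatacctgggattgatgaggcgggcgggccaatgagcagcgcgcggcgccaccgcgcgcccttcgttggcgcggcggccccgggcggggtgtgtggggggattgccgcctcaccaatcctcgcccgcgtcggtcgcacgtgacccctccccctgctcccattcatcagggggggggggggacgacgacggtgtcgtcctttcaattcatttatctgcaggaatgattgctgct
Mobp chr9:120149492-120149741: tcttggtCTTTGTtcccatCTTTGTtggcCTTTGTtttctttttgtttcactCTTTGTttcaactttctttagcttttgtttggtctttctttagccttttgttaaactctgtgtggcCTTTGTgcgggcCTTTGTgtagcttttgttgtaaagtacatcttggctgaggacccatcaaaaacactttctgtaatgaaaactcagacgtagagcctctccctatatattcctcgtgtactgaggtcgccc
The Neurod2 window held 1 E-box, the Mobp window 6 SOX cores, and the Fezf2 and Zic1 windows neither motif. Among the first windows of 9887 measured genes, 10.9% held the E-box and 13.3% the SOX core on either strand. Among the genes higher in cortex, 194 had a window and the shares were 8.76% and 12.4%; among those higher in rest, 204 had one and the shares were 12.7% and 10.3%. A match describes letters and not binding, and these shares are given without a test.

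Transcription factors of cortical projection neurons had the highest share of calls in cortex among the lists. Of 30 genes listed, 21 had a probe set on both arrays, and 9 of these were called higher in cortex and 0 in rest, with the common floor as without it. The median shift was 9.39 points (7.58 with the common floor), against 3.04 (0 with the floor) over all genes. Without rest replicate 3, 6 members were called. Between 18 and 20 of the 21 had a value on each cortex array, and 18 or 19 on each rest array, so the regions differed in rank and not in how many members were listed. Emx1 was not analysed here. Tissue was measured in bulk, so fewer cells of a type and less RNA per cell cannot be told apart.

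Fezf2, which specifies the subcerebral projection neurons of the deep layers and whose upstream window is given above, was higher on every cortex array. It ranked at 72.1, 70.7 and 62.9 on the cortex arrays and at 37.5 (blank), 39.7 and 36.0 (blank) on the rest arrays, or 68.6 ± 4.95 against 37.7 ± 1.84 (SD, n = 3 each), a shift of 30.8 points. Only rest replicate 2 listed it at all, with a signal of 47.3. Neurod2, a basic helix-loop-helix factor of maturing cortical neurons, ranked at 85.5, 85.6 and 87.1 in cortex and at 37.5 (blank), 36.2 (blank) and 75.0 in rest. The rest arrays were not alike here: the third alone listed Neurod2, at a signal of 422.4, and still ranked it below every cortex array. Its relative Neurod6 ranked at 73.7, 83.5 and 74.2 in cortex and at 39.2, 60.8 and 37.3 in rest, with rest replicate 2 nearest to cortex. Lhx2, a selector of cortical identity, held 83.1, 82.8 and 83.5 in cortex against 59.6, 66.6 and 53.9 in rest. Tbr1, the layer 6 factor, was dimmer, at 63.5, 56.9 and 52.0 against 39.4, 38.5 and 36.0 (blank), a shift of 19.5 points that shrank to 11.5 with the common floor. Pou3f1, which marks upper-layer and other projection neurons, shifted by 23.6 points, Mef2c by 11.2 with its brightest probe set, Foxp1 by 11.2 and Bcl11a by 10.6.

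Different probe sets of these genes gave the same direction. For Mef2c, an activity-regulated factor, all 5 were called higher in cortex, by 11.2 to 40.8 points. All 7 probe sets of Foxp1 were called too, and both of Bcl11a. Satb1, a chromatin organiser in cortical neurons that stood in another list, ranked at 92.8, 92.8 and 91.4 in cortex and at 73.8, 79.3 and 76.7 in rest, and its 3 probe sets were all called.

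Synaptic and signalling genes of cortical excitatory neurons followed the same direction. Of 36 genes on both arrays, 12 were called higher in cortex and 0 in rest; with the common floor 11 were called. The median shift was 7.55 points (6.28 with the floor). Icam5, the telencephalic adhesion molecule telencephalin, ranked at 90.4, 90.0 and 91.3 in cortex and at 64.2, 73.4 and 55.9 in rest, a shift of 26.1 points. Ptk2b, a calcium-sensitive tyrosine kinase, ranked at 86.0, 83.6 and 81.1 against 65.6, 63.3 and 51.8. Mical2, an actin-oxidising enzyme, was level over the rest arrays, at 48.9, 48.9 and 49.0, against 74.4, 71.1 and 69.98 in cortex. Ccn2, a matrix protein of the subplate, shifted by 16.5 points. Crym, a thyroid-hormone binding protein of cortical neurons, shifted by 33.4, yet its rest arrays spanned nearly the whole scale at 55.6, 89.1 and 36.0 (blank). Cplx3, a subplate complexin, fell to a shift of 4.93 with the common floor and was no longer called.

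Some well-known cortical genes did not pass the rule. Nrgn, the postsynaptic calmodulin-binding protein neurogranin, ranked at 99.6, 99.1 and 98.6 in cortex and at 92.1, 92.7 and 86.6 in rest; the groups did not overlap, but its shift was 8.62 points. Cck, the neuropeptide cholecystokinin, shifted by 8.71 and Slc30a3, the synaptic zinc transporter, by 9.84. Camk2a and Arc were blank on all 6 arrays.

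**Figure D2:**
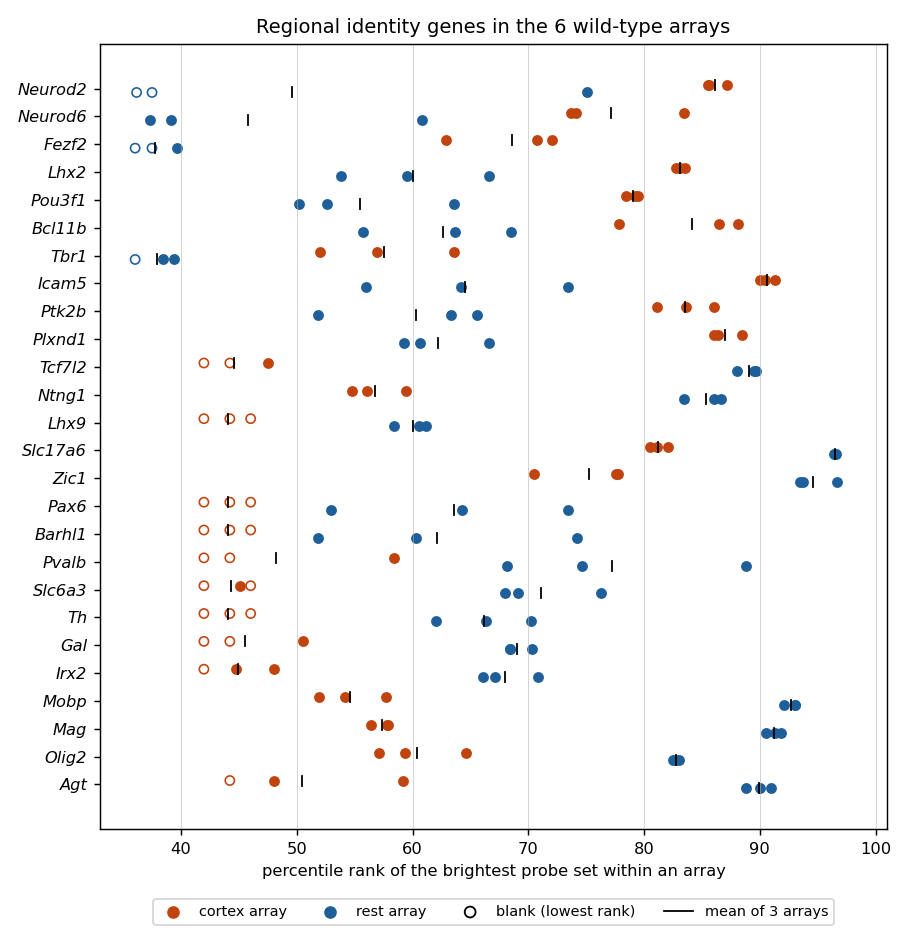
Percentile rank within an array (horizontal axis) of the brightest probe set of 26 regional genes, with 1 mark per array: cortex in orange, rest in blue, open marks for a blank, and short black lines for the means of 3 arrays. The first 10 genes (Neurod2 to Plxnd1) rank higher on all cortex arrays, and the other 16 (Tcf7l2 to Agt) on all rest arrays. All 26 were picked from called genes, so this separation follows from the rule for a call. Members of the lists that were not called are not drawn.

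Signalling and axon-guidance genes were split. Of 33 on both arrays, 5 were called higher in cortex (15.2%) and 2 in rest (6.06%); without rest replicate 2, 10 were called in cortex. Plxnd1, a semaphorin receptor, ranked at 86.4, 88.4 and 86.1 in cortex and at 66.6, 60.6 and 59.3 in rest. Epha4, an ephrin receptor, ranked at 78.8, 81.9 and 79.4 against 57.0, 69.0 and 54.4. The ligands Slit1, Sema7a and Sema3a shifted by 15.4, 13.98 and 11.2 points. Netrin 1 (Ntn1), the floor-plate attractant, went the other way, at 55.4, 44.2 (blank) and 54.7 in cortex and 72.6, 69.6 and 74.8 in rest. Aldh1a1, a retinaldehyde dehydrogenase also present in dopamine neurons, was blank on every cortex array and ranked at 65.8, 71.8 and 72.4 in rest.

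Interneuron and hippocampal lists gave few calls. Among 21 interneuron genes, Lhx6, the factor of interneurons from the medial ganglionic eminence, shifted by 17.1 points towards cortex and Vip, a peptide of a later-born class, by 23.3, while Calb2 (calretinin) was higher in rest by 16.9. Without rest replicate 1, 4 interneuron genes were called in cortex, and without cortex replicate 1 or 3, 2 were called in rest. Among 14 hippocampal genes, Lhx2 and Grp were higher in cortex; Grp, a bombesin-like peptide, ranked at 85.3, 85.3 and 81.7 against 56.6, 65.9 and 53.7.

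Among the genes higher in rest, the thalamic list had no member called on the cortical side: 7 of 18 were called in rest (38.9%) and 0 in cortex, with a median shift of -8.56 (-8.26 with the floor). Tcf7l2, a Wnt effector that marks postmitotic thalamic and other caudal neurons, ranked at 42.0 (blank), 44.2 (blank) and 47.5 in cortex and at 89.5, 88.0 and 89.7 in rest, a difference of 44.5 points. Its signal was 37.8 on the third cortex array, the only one to list it, and 883.3 to 1021.2 on the rest arrays; 3 of its 4 probe sets were called. Ntng1, netrin G1 of thalamocortical axons, ranked at 56.0, 59.5 and 54.8 against 86.0, 86.7 and 83.5, with both of its probe sets called. Lhx9, a selector of diencephalic neurons, was blank on all cortex arrays and stood at 58.4, 61.2 and 60.6 in rest. Slc6a4, the serotonin transporter that thalamic relay neurons carry transiently, was blank in cortex as well and ranked at 57.4, 59.2 and 61.2 in rest.

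Slc17a6, the vesicular glutamate transporter VGLUT2 of subcortical neurons, was higher in rest by both of its probe sets. The brighter ranked at 80.5, 82.0 and 81.1 in cortex and at 96.5, 96.5 and 96.4 in rest, with signals of 332.8 to 358.9 and 2207.6 to 2313.8. The other was blank on every cortex array and had signals of 972.1, 1114.7 and 824.7 in rest, a difference of 44.9 points. Slc17a7, its cortical counterpart, was not analysed here.

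Of 26 cerebellar granule cell genes, 9 were called higher in rest (34.6%), 1 in cortex and 16 neither way, or 8 in rest and 1 in cortex with the common floor and 2 and 1 over probe sets listed on all 6 arrays. The median shift of the list was -1.76 points. Zic1, a zinc-finger factor of granule precursors and other dorsal neurons, ranked at 70.5, 77.6 and 77.7 in cortex and at 93.8, 93.5 and 96.6 in rest. Mab21l1, Pax6 and Barhl1, factors of the granule lineage among other cells, were blank on all cortex arrays with their brightest probe sets. Of all their probe sets, 2 of 2 were called for Mab21l1, 1 of 5 for Pax6 and 1 of 2 for Barhl1. Pax6 ranked at 64.3, 53.0 and 73.4 in rest, Barhl1 at 60.3, 51.8 and 74.2 and Mab21l1 at 64.7, 60.4 and 78.0. In each of these the third rest array was the highest and the second the lowest. Gabrd, the delta subunit of the GABA-A receptor, which mature granule cells carry, was the exception, with 65.8, 65.5 and 67.2 in cortex and 43.8, 43.8 and 54.6 in rest. Unc5c, a netrin receptor, was called although cortex replicate 3 was blank: 77.6, 77.9 and 46.0 (blank) against 82.3, 78.2 and 85.8.

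Purkinje cell genes gave 4 calls of 20 in rest and 0 in cortex (median shift -6.16). Pvalb, the calcium-binding protein parvalbumin, ranked at 42.0 (blank), 44.2 (blank) and 58.4 in cortex and at 74.7, 68.2 and 88.8 in rest. Rgs8, a regulator of G-protein signalling, and Slc1a6, the Purkinje glutamate transporter EAAT4, were higher in rest by 18.01 and 16.3 points, and Rora, a nuclear receptor of Purkinje and thalamic neurons, by 12.3. Pcp2, a Purkinje-specific gene, had groups that overlapped: 65.3 on cortex replicate 3 lay above 50.7 on rest replicate 2. Without rest replicate 3, 8 granule and 4 Purkinje genes were called in rest.

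Transmitter genes of brain stem neurons were often blank on every cortex array. Of 20 monoamine, cholinergic and glycinergic genes, 6 were called in rest (30.0%) and 0 in cortex, though 5 were blank on all 6 arrays. The median shift was 3.96 points (0 with the common floor), and over probe sets listed on all 6 arrays 1 was called in rest. Th, tyrosine hydroxylase of catecholamine synthesis, was blank on every cortex array and ranked at 70.2, 62.0 and 66.3 in rest, with signals of 331.3, 219.5 and 282.9. Slc6a3, the dopamine transporter, ranked at 42.0 (blank), 45.1 and 46.0 (blank) against 69.1, 68.0 and 76.3. Ddc, aromatic amino acid decarboxylase, ranked at 47.5, 44.3 and 53.7 against 74.3, 76.1 and 76.6. Isl1, a factor of motor and striatal cholinergic neurons among others, was blank in cortex and stood at 60.6, 66.4 and 53.9 in rest. Dbh, which makes noradrenaline, was blank in cortex but weak in rest, at 52.4, 43.1 and 54.6, and was not called.

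Patterning genes of the midbrain and isthmus gave 3 calls of 23, all in rest: Irx2, Tal1 and Irx1, higher by 23.1, 16.6 and 12.8 points. Without cortex replicate 3, or without rest replicate 2, 5 were called. The median shift of the list was 0.695 points (0 with the common floor), and over probe sets listed on all 6 arrays 0 were called. En1 ranked at 37.8, 43.3 and 49.0 in rest and was blank in cortex. En2, the other engrailed factor, reached 65.1 on the third rest array and 48.8 and 44.1 on the first and second. Hox genes, which pattern the hindbrain and spinal cord, had few values: 20 of 24 were blank on all 6 arrays and 0 were called, which does not show that they were not expressed. Hoxa5 had a value on rest replicate 2 alone, at 54.5. Hoxb7, the single Hox gene with any value in cortex, ranked at 44.7, 46.5 and 58.2 there and at 39.7, 41.4 and 38.8 in rest.

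Hypothalamic genes and peptides gave 7 calls of 29 in rest (24.1%) and 2 in cortex. Gal, the peptide galanin, ranked at 42.0 (blank), 44.2 (blank) and 50.5 in cortex and at 68.4, 70.3 and 68.4 in rest. Avp, vasopressin, ranked at 42.0 (blank), 44.2 (blank) and 58.3 against 69.9, 66.4 and 74.1. Nkx2-2, a ventral patterning factor also used by oligodendrocyte precursors, ranked at 61.1, 56.1 and 59.96 against 79.1, 79.1 and 81.0. Dlk1, an imprinted Notch-like ligand, was higher in rest by 20.7 points, and the neuroendocrine genes Resp18 and Hap1 by 15.5 and 14.8. The exceptions were Lhx6, described above, and Tac2, the neurokinin B precursor, which ranked at 56.7, 55.3 and 56.9 in cortex and at 43.3, 42.0 and 40.8 in rest.

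Striatal genes were divided, with 2 of 20 called in each direction. Bcl11b, shared by striatal neurons and deep-layer cortical neurons, ranked at 86.5, 77.8 and 88.2 in cortex and at 63.7, 68.5 and 55.7 in rest. Tac1, the substance P precursor, ranked at 67.6, 67.5 and 67.9 against 84.99, 78.9 and 75.5. The cortical count was 6 without cortex replicate 2, 4 without rest replicate 2 and 1 without rest replicate 3, and the rest count was 1 without rest replicate 1. Among 16 olfactory bulb genes, Th and Calb2 were called in rest; Calb2 ranked at 79.1, 82.3 and 80.8 in cortex and at 98.0, 97.5 and 97.4 in rest.

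Myelin genes had the highest share of calls among the lists. Of 20 myelin genes on both arrays, 12 were called higher in rest (60%) and 1 in cortex, with the common floor as without it, and the median shift was -12.7 points. The summed signal of the list was 5770.3 to 6635.9 on the cortex arrays and 24609.2 to 24975.6 on the rest arrays, while that of the 25 housekeeping genes was 51186.7 to 54261 and 81279.2 to 87111.4.

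Mobp, a protein of compact myelin, ranked at 54.2, 51.9 and 57.7 in cortex and at 92.1, 93.0 and 93.0 in rest with its brightest probe set. The signals were 80.9, 66.1 and 94.7 against 1242.5, 1381.4 and 1384.9, and all 3 probe sets were called. Mag, the adhesion glycoprotein of the inner myelin membrane, ranked at 57.9, 56.4 and 57.8 against 90.5, 91.3 and 91.8. Mal, a myelin proteolipid, was blank on every cortex array with its brightest probe set, which ranked at 80.6, 77.4 and 79.8 in rest. Its other probe set had signals of 31.4 and 35 on cortex replicates 1 and 3 and was called in rest too, with a shift of -32.4 points. Ugt8a and Fa2h, enzymes of galactolipid synthesis, were higher in rest by 30.1 and 23.1 points, and Cldn11, the tight-junction protein of myelin, by 25.7. Myrf, the transcription factor that drives myelination, and Mog, an outer-surface glycoprotein made late, were blank in cortex and higher in rest by 13.9 and 15.3. Mbp, myelin basic protein, was near the top on every array, at 97.9, 96.8 and 97.9 against 99.8, 99.8 and 99.7. Its brightest probe set was not called, with signals of 1469.7 to 1914.4 in cortex and 6014.4 to 6787.5 in rest. Of its 8 probe sets, 2 were called higher in rest, and the shifts ran from -26.2 to 7.50 points. Cryab, a small heat-shock protein of oligodendrocytes and other cells, was the exception, higher in cortex by 18.5 points.

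Of 10 oligodendrocyte precursor genes, 4 were called in rest and 0 in cortex, and 2 without cortex replicate 2. Olig2, the lineage factor, ranked at 64.6, 59.4 and 57.1 in cortex and at 82.8, 82.5 and 83.1 in rest. Sox10, which maintains the lineage, was called with a blank on cortex replicate 2: 76.4, 44.2 (blank) and 78.3 against 86.9, 84.9 and 84.0. The brightest probe set of Pdgfra, the growth-factor receptor of precursors, ranked at 88.2, 87.6 and 87.9 against 90.8, 90.5 and 90.5, a difference of 2.67 points. Its other probe set was called higher in rest, with a shift of -10.2 points.

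Other glial and non-neural lists had few calls. Of 27 astrocyte genes, 2 were higher in rest and 1 in cortex. Agt, angiotensinogen, which astrocytes of caudal regions make, ranked at 48.1, 44.2 (blank) and 59.2 in cortex and at 90.0, 88.8 and 91.0 in rest, a difference of 39.4 points. S100b, a calcium-binding protein of astrocytes and oligodendrocytes, ranked at 60.3, 59.7 and 65.9 against 84.8, 83.1 and 87.6. Slc1a2, the glutamate transporter GLT-1, was on the cortical side, at 57.6, 55.9 and 56.7 against 42.4, 44.0 and 36.0 (blank), and Slc1a3, the related GLAST, was level at a shift of 0.18. Aqp4 and Gfap, an astrocyte water channel and filament protein, differed by 3.03 and 1.88 points, both towards rest. Among 7 ependymal and cilia genes, Mia was called in rest. Of 12 choroid plexus, 28 meningeal and mural, 24 endothelial, 22 microglial, 11 blood and 30 cell division genes, 0 were called in each list. Their summed signals ran from 3927.3 to 7372.8 in cortex and 11413.8 to 11894.2 in rest for choroid plexus, 5607.4 to 6113.3 and 8313.8 to 14452 for meninges and mural cells, and 120.9 to 225.3 and 222.8 to 536.1 for blood, where 7 of 11 genes were blank throughout. Housekeeping sums differ between the tables as well, so these are not compared as levels. Acta1, of skeletal muscle, was called in cortex at ranks of 51.9 to 56.0 against 41.2 to 42.4, and was not called with the common floor.

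**Figure D3:**
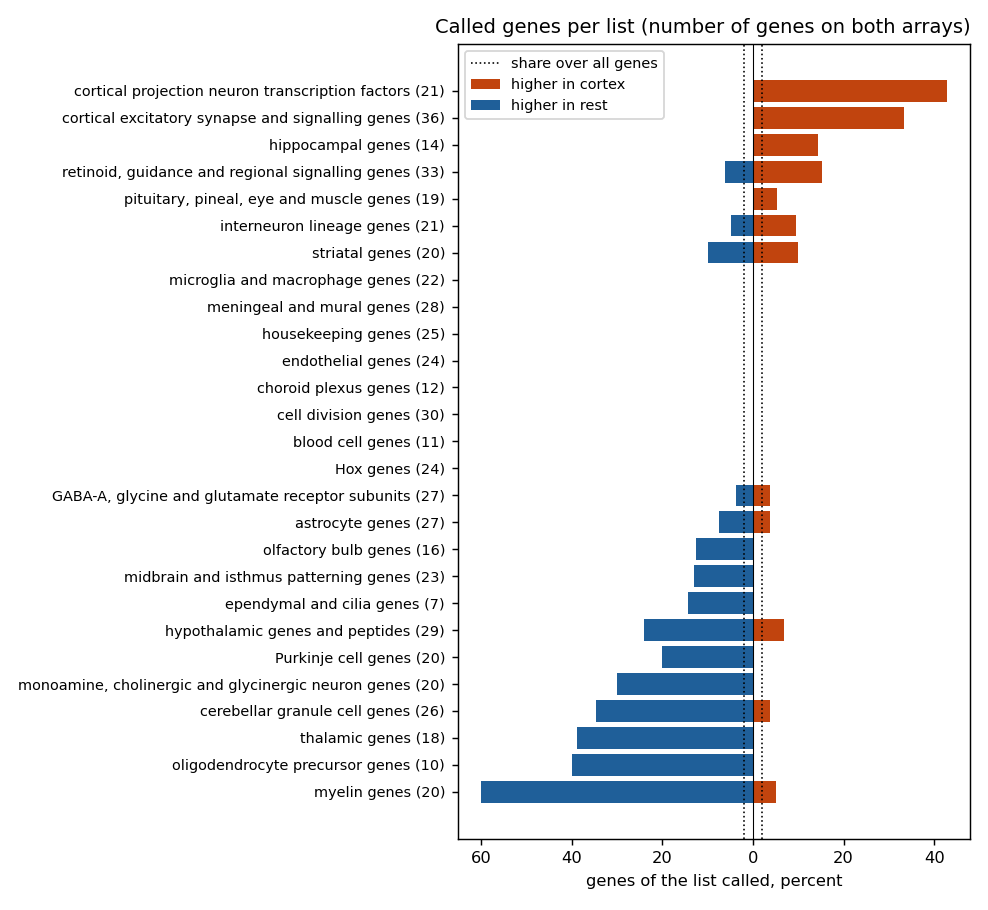
Share of each list's genes that was called (horizontal axis, percent), to the right for higher in cortex and to the left for higher in rest, with the number of genes on both arrays in brackets; dotted lines mark the share over all genes (2.09% and 2.03%). The cortical transcription factor list reaches 42.9% on the right and the myelin list 60% on the left.

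Related genes took opposite sides in some pairs. Of 22 on both arrays, 6 were called in cortex and 5 in rest, or 8 in rest without rest replicate 2. In the LIM factors, Lhx2 was higher in cortex by 23.1 points and Lhx9 in rest by 15.99. Of the NeuroD factors, Neurod6 was higher in cortex by 31.3 and Neurod1 overlapped between groups, at 78.2, 72.3 and 89.3 against 82.4, 73.9 and 96.5. Tbr1 was higher in cortex and Eomes, its T-box relative, overlapped. Calb2 was higher in rest, and Calb1 (calbindin) differed by 0.309 points. Cbln1, a granule cell synapse organiser, was higher in rest by 12.7. Otx2, Irx3 and Foxp2 were higher in rest by 9.23, 9.79 and 8.69 points, under the threshold, and Nr2f1 and Nr2f2 shifted by 2.88 and -6.15. Gabra6 and En2 were highest on rest replicate 3 and were not called. Of 27 receptor subunits, Gabrd was higher in cortex and Gabrg1, another GABA-A subunit, was higher in rest by 18.4 points, at 59.0, 61.1 and 57.6 against 74.5, 76.3 and 82.1; without cortex replicate 1 or 2 or rest replicate 1, 2 subunits were called in rest.

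The largest shifts also named genes outside these lists. Sla, a Src-like adaptor protein, headed the cortical side: it ranked at 82.9, 90.9 and 87.7 in cortex and was blank on all rest arrays, a shift of 50.6 points (41.2 with the common floor), and its other probe set was called too. Synpo (synaptopodin) and Itpka, proteins of dendritic spines, shifted by 34.9 and 31.2, Kalrn, a spine exchange factor, by 30.9, and Rasl11b, a small GTPase, by 30.1. Synpo and Kalrn each had other probe sets that were not called. Gpr12, an orphan receptor, and Emid1 shifted by 33.4 and 30.5, but each had a value on 1 rest array, 309.1 on rest replicate 2 and 240.4 on rest replicate 3.

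On the rest side, Vamp1, a synaptic vesicle protein of caudal neurons, ranked at 53.5, 55.9 and 46.0 (blank) in cortex and at 89.5, 87.8 and 83.9 in rest, with both probe sets called. The dimmer Vamp1 probe set had a shift of -9.87 points with the common floor and was not called with it. Galnt16, a glycosyltransferase, and Cdk5rap3 each had a single probe set, blank on all cortex arrays, and were higher in rest by 39.3 and 35.1 points. Tmx2, a thioredoxin-related membrane protein, had the largest shift among genes with 1 symbol, 47.9 points, but only by 1 of 2 probe sets: the other ranked at 88.5, 87.4 and 91.1 in cortex and at 92.8, 93.0 and 92.4 in rest. Bola2 likewise had 1 of 5 probe sets called, by 37.2 points, while a second was higher in rest by 27.98 points with overlapping groups and 3 others shifted by 2.42 to 2.86 towards cortex (the last of these by -0.0796 with the common floor). Vat1 had both called, by 40.5 and 13.9 points. Over all genes, 430 with a call had at least 2 probe sets, and in 347 of these exactly 1 was called. Among the 347 were Lhx6, Lhx9, Isl1 and Ntn1, each with 1 of 2 called. In 83 genes at least 2 were called, and in 2 of those, Aldh2 and Golga4, the calls went both ways.

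The knockout arrays repeat the comparison on the same array types, so array type cannot be told apart from region there either. Of the 461 probe sets higher in wild-type cortex, 287 (62.3%) were called in knockout too and 446 (96.7%) had the same sign. Of the 440 higher in wild-type rest, 260 (59.1%) were called and 398 (90.5%) had the same sign. A probe set blank on every knockout array lies 8.52 points towards cortex, and so counts as the same sign on the cortical side only. The sign shares over all probe sets are not given here, so these shares have no background beside them. In the knockout comparison as a whole 696 probe sets (3.08%) were called in cortex and 539 (2.38%) in rest. Among the genes above, Fezf2 shifted by 37.1 points in knockout, Neurod2 by 48.9 and Tcf7l2 by -42.9, against 30.8, 36.5 and -44.5 in wild type.

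In the knockout arrays, 3 per region, 2 of the 20 myelin genes were called in rest and 1 in cortex. The brightest probe set of Mobp, at 54.6 ± 2.91 in wild-type cortex and 92.7 ± 0.530 in wild-type rest, averaged 44.0 and 48.7 in knockout. With their brightest probe sets, Mal averaged 44.0 and 42.6 in knockout, and Ugt8a 45.2 and 49.6. Mag still differed, at 44.0 against 57.6. A gene blank on every knockout array averaged 44.0 in cortex and 35.4 in rest, and no common floor was applied to these ranks. The 44.0 of Mobp, Mal and Mag in knockout cortex is that blank level, while their rest averages lay above the rest blank level. Vip (1.75 points) and Lhx6 (5.88) were not called in knockout. Of 28 meningeal and mural and 22 microglial genes, 5 each were called in knockout cortex and 0 in wild type. Over all 12393 genes, 377 were called in knockout cortex and 311 in knockout rest. The higher blank level of the knockout cortex arrays moves dim genes towards cortex, and its part in these counts was not tested. The difference between genotypes in these shifts was not tested. Xist also differed between genotypes. Its brightest probe set ranked at 98.3 to 99.1 on the wild-type arrays and averaged 63.5 in knockout cortex and 63.7 in knockout rest. The probe set called in wild type averaged 88.5 in cortex and 65.2 in rest there, and 57.7 and 41.0 in knockout. The sexes of the animals may therefore differ between genotypes, and their part in the genotype differences was not tested.

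**Figure D4:**
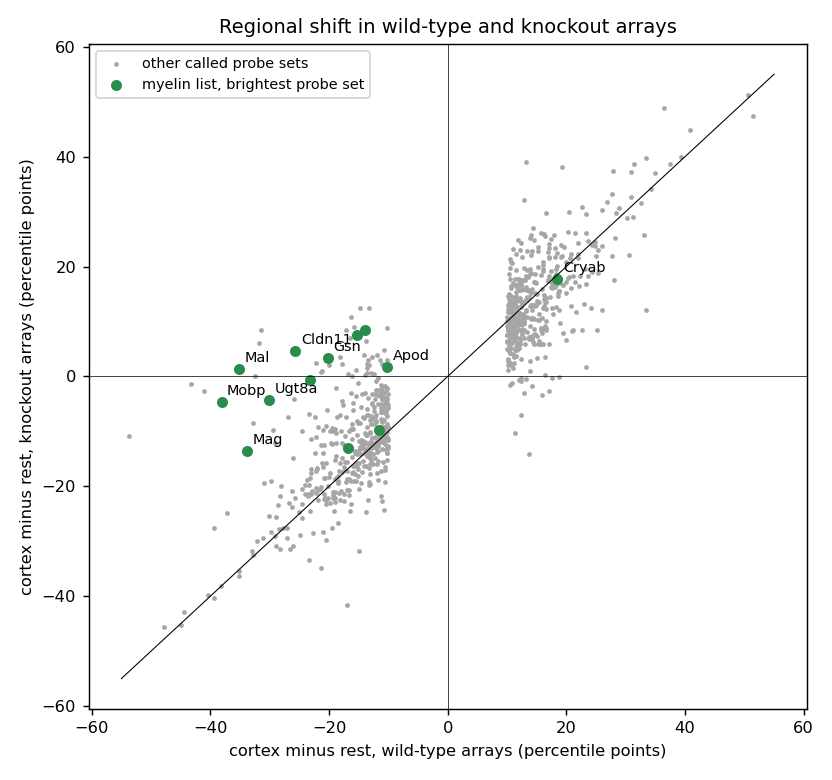
Each point is a probe set called in wild type, plotted by its cortex minus rest shift in percentile points in wild-type arrays (horizontal axis) and in knockout arrays (vertical axis); the diagonal marks equal shifts, and green points are the called myelin genes by their brightest probe set. Most grey points follow the diagonal, whereas Mobp, Mal, Ugt8a, Gsn and Cldn11 lie near 0 on the vertical axis. A probe set blank on every knockout array lies at 8.52 on that axis.

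Several genes differed between arrays of 1 group; those below were chosen after their values were seen. Rest replicate 1 alone listed growth hormone (Gh), with signals of 1043.9 to 2818.4 over 4 probe sets, and Cga, the shared alpha subunit of the glycoprotein hormones, at 1240.1. Pomc, the corticotropin precursor, had 2345.6 on that array and was blank on the other rest arrays, with 45.6 and 68.5 on cortex replicates 1 and 3. Lhb, a gonadotropin subunit, had 248.2 there and 58.5 on rest replicate 2. Prl was blank on all 6 arrays. None of these genes was called.

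Cerebellar genes were strongest on rest replicate 3. Pcp2 had signals of 278.5, 120.4 and 1236.5 on rest replicates 1 to 3, and Gabra6, the granule cell GABA-A subunit, 31.6, blank and 514.4. Cortex replicate 3 also listed both, at 145.3 and 64.9, and the other cortex arrays were blank. Neurod1, of granule cells among others, had 613, 388.9 and 2236 in rest. The summed signal of the granule cell list ranged from 8286.8 to 16698.5 over the rest arrays.

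Cortical and striatal transcripts varied in the same manner. Crym had signals of 163.2, 959.9 and blank on the rest arrays, where rest replicate 2 ranked at 89.1, against 92.8 to 94.3 on the cortex arrays, and Neurod6 had 42.3, 207.3 and 36.8. Ppp1r1b (DARPP-32) and Penk (enkephalin), of striatal neurons, were blank on cortex replicate 2 and had 432.7 and 324.3, and 420.9 and 517.2, on cortex replicates 1 and 3. A blank was not always a dim value: of 1079 probe sets listed on exactly 2 of the cortex arrays, 60 ranked above 70 where listed, and of 962 on the rest arrays 15 did. How the tissue was cut was not recorded in the labels, and its part in these differences was not tested.

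**Figure D5:**
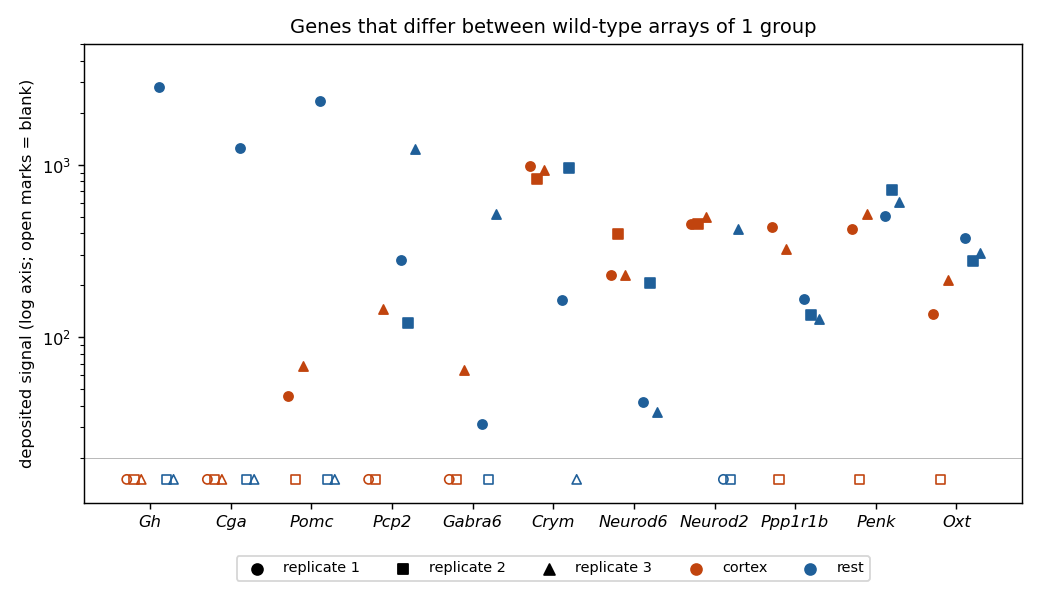
Deposited signal (vertical log axis) of 11 genes on each wild-type array, cortex in orange and rest in blue, with circles, squares and triangles for replicates 1, 2 and 3; open marks at the bottom are blanks and have no value. Gh and Cga have a value on rest replicate 1 alone, Pcp2 and Gabra6 are highest on rest replicate 3, and Ppp1r1b, Penk and Oxt are blank on cortex replicate 2.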

How the data were processed

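The deposited signals are linear intensity values, 1 per probe set and array, that the authors made with MAS5, per the submitters' processing notes; version, settings and the reason for blanks are not given in the sources used here. The A chip table and the rest table, 2 separately normalized tables as deposited, were used. The B chip was not used here. The 64 control probe sets were left out, and ranks were taken over the 22626 probe sets shared by both tables. Calls, floors and the use of the brightest probe set per gene follow the rules given with the results. Of the shared probe sets 20380 had 1 gene symbol, 691 several and 1555 none; symbols came from the array annotation, updated through RefSeq.

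The members and gene lists were chosen with earlier results of these data known. Named genes are the 12 largest shifts each way, up to 5 called members of a list, and all paralogues; others are examples chosen after their values were seen. Precision is limited by 3 arrays per group, from 3 animals for cortex per the series' design text and of unstated origin for rest. Same-numbered cortex and rest arrays were checked for pairing. Their deviations correlated across 11382 probe sets at 0.0363, 0.0963 and 0.0852, against -0.129 to 0.0528 for other pairs. The same-numbered values were all positive, and those of replicates 2 and 3 lay above every other pair. Whether a shared number means a shared animal is not stated, so numbers were not treated as pairs in the main calls. Alternatives covered blanks, filters, ranked sets, scales and left-out arrays. The calling script was tested on simulated data. Python 3.11.15, pandas 2.3.3, numpy 2.4.6 and matplotlib 3.10.9 were used.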

Additional observations from a re-analysis of the deposited data

Results flagged for a closer look

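Of the probe sets called in wild type, 3 were called the opposite way in knockout, and the difference between genotypes was not tested. The lower Xist ranks in knockout, given above, bear on these probe sets too. The brightest probe set of Lpar1, a lysophosphatidic acid receptor of oligodendrocytes among other cells, had a cortex minus rest shift of -14.8 points in wild type and 12.5 in knockout; its ranks were 58.0, 55.2 and 57.1 in wild-type cortex and 73.5, 71.9 and 69.3 in wild-type rest. Pdlim2, a PDZ and LIM domain protein, was blank on all wild-type cortex arrays and shifted by -16.4 points in wild type and 10.8 in knockout. Tnks1bp1, which binds tankyrase, shifted by 13.7 points in wild type and -14.2 in knockout. Its wild-type shift rests on cortex replicate 1 alone, with a signal of 116.1 and blanks on the other 5 arrays, and it was not called with the common floor.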

How the results depend on the processing

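The counts of called probe sets, 461 in cortex and 440 in rest, varied with the processing. Ranking each array over every probe set of its own table gave 34 and 6304, since the rest table holds more, mostly dim, probe sets. A threshold of 20 points gave 67 and 115. Rank-matched log2 signals with a shift of at least 1 gave 623 and 772, and scaled log2 signals gave 237 and 1057 with an offset of 16 and 137 and 563 with an offset of 64. A blank set to 0 gave 445 and 912, and probe sets listed on all 6 arrays 315 and 188. Leaving out 1 array at a time gave 430 to 598 in cortex and 444 to 532 in rest. With the replicate block, where every same-numbered pair had to shift by at least 10 points, 165 and 260 were called; no test was made with or without it.

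The named genes gave 80 called probe sets, some of them of the same gene. Of these, 80 kept the call with blanks at 0, 79 with the common floor and 62 with own-table ranks. With rank-matched signals 78 kept it, with the offsets of 16 and 64 77 and 72, and without 1 array 78 to 80. Acta1 turned to -3.05 points with own-table ranks. Signals near the blank level limit what can be seen: 3335 of 12393 genes were blank on all 6 arrays.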
